A study of Mus musculus with 60 samples.

Results

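Unstimulated naive CD8 T cells that lacked Sh2b3 were compared with the same cells from wild-type mice, using all 22 libraries collected at 0 h out of the 60 libraries of the study. The 11 Sh2b3-/- and 11 WT libraries were chosen by their labels alone, genotype and time, with no measured value used. Both groups were mice of the NOD strain, which is prone to autoimmune diabetes, and both carried the OT-I transgene, a T cell receptor that recognises a peptide of ovalbumin. The cells were taken from spleen by negative selection and lysed without treatment, and polyadenylated RNA was sequenced. Neither the allele used to remove Sh2b3 nor the age of the mice was given in the labels, nor whether replicates were separate animals, so p-values measure the spread between these libraries, which may be technical. The library names fall into 3 blocks of numbers, called runs here: run A (numbers 1 to 10) held 5 libraries of each genotype, run B (33 to 40) held 2 of each and run C, with the highest numbers, held 4 of each.

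SH2B3, also known as LNK, is an adaptor protein that binds activated JAK2 and phosphorylated cytokine receptors through its SH2 domain and damps their signal. In mice its loss expands haematopoietic progenitors, platelets and B-lineage cells. In T cells it has been studied as a brake on the cytokines that use the common gamma chain, which signal through JAK1, JAK3 and STAT5.

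Levels are in CPM, a gene's counts scaled to its library's total after TMM normalization. Library totals ran from 13987029 to 34042737 counts with a median of 17984648. Of the 500 most variable genes' variance the first principal component held 19.6% and the second 10.7%, and on these axes Sh2b3-/- replicates 6 and 10 lay farthest from the rest. The cells matched their label: Cd8a, the CD8 alpha chain, was at 1199 to 1625 CPM in Sh2b3-/- and 1040 to 1476 CPM in WT libraries, and Cd4 reached at most 1.49 CPM in Sh2b3-/- and 0.574 CPM in WT. Trbv12-1, the V segment of the OT-I beta chain, was at 173 CPM in Sh2b3-/- replicate 1 and 133.8 CPM in Sh2b3-/- replicate 6, against 381 to 528 CPM in the other Sh2b3-/- libraries and 487 to 779 CPM in WT. It made up 89.6% and 94.2% of all beta-chain V segment counts in those libraries, and at least 96.7% in every other library. Some results that lean on replicates 1, 6 or 10 are also given without them.

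Of 12802 genes tested, 81 were called at an adjusted p under 0.05 (edgeR quasi-likelihood test with run as a term), which is 0.633%. In Sh2b3-/- cells 42 were higher (0.328%) and 39 lower (0.305%), and 1337 genes had an unadjusted p under 0.05. Unadjusted counts of gene groups below are to be read against these 1337 of 12802 genes. DESeq2 called 101 higher and 62 lower. Differences were small for most: 19 of the higher and 13 of the lower genes changed by at least 1.5-fold. The direction was the same in all 3 runs for 79 of the 81, against 29.8% of all tested genes. Drc1 and Odc1 were the exceptions, with log2 differences of −0.29 and −0.09 in run B. The calls were made over the same 3 runs, which favours agreement between them, so the 79 are not separate support for the calls. Sh2b3-/- and WT libraries did not overlap for 6 genes (0.0469%), of which 5 were called: Sh2b3, Gm6472, Rnf144a, Trappc12 and Id2. The other, Ppic (1.25, adjusted p = 0.0610; 0.88 and called without Sh2b3-/- replicate 10), encodes a cyclophilin and was named after its values were seen. The median log2 difference of all tested genes was −0.00, which is the level against which the medians of gene groups below are read.

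Sh2b3 itself (ENSMUSG00000042594, chromosome 5) was at 7.44, 14.1 and 16.2 CPM (lowest, median and highest) in Sh2b3-/- libraries, against 64.6, 75.5 and 93.5 CPM in WT libraries. Every Sh2b3-/- library was below every WT library, and 17% of the WT level remained. The log2 difference was −2.57 ± 0.12 (SE; adjusted p = 1.53e-12), with −2.26 in run A, −3.06 in run B and −2.71 in run C. Counting was per gene, so the exons that carry the remaining reads are not known. Of the other members of the family, Sh2b1, an adaptor of insulin, leptin and growth hormone receptors, was at 137.5 to 201 CPM in Sh2b3-/- and 155.6 to 220 CPM in WT libraries. Its log2 difference of −0.10 (95% interval −0.21 to 0.02) was not called. Sh2b2 had 0 to 2 counts in Sh2b3-/- and 0 to 8 counts in WT libraries and was too low to test. Atxn2, the gene next to Sh2b3, was higher in Sh2b3-/- cells, at 63.1, 68.5 and 84.9 CPM against 43.6, 54.3 and 71.0 CPM in WT, a log2 difference of 0.38 ± 0.07 (adjusted p = 0.00254). Both annotations overlap and the strand setting of the counting was not given in the sources used here, so reads of Atxn2 and Sh2b3 may not be fully separated. It was the only called gene among 26 tested neighbours of Sh2b3 on chromosome 5, whose median was −0.00.

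**Figure D1:**
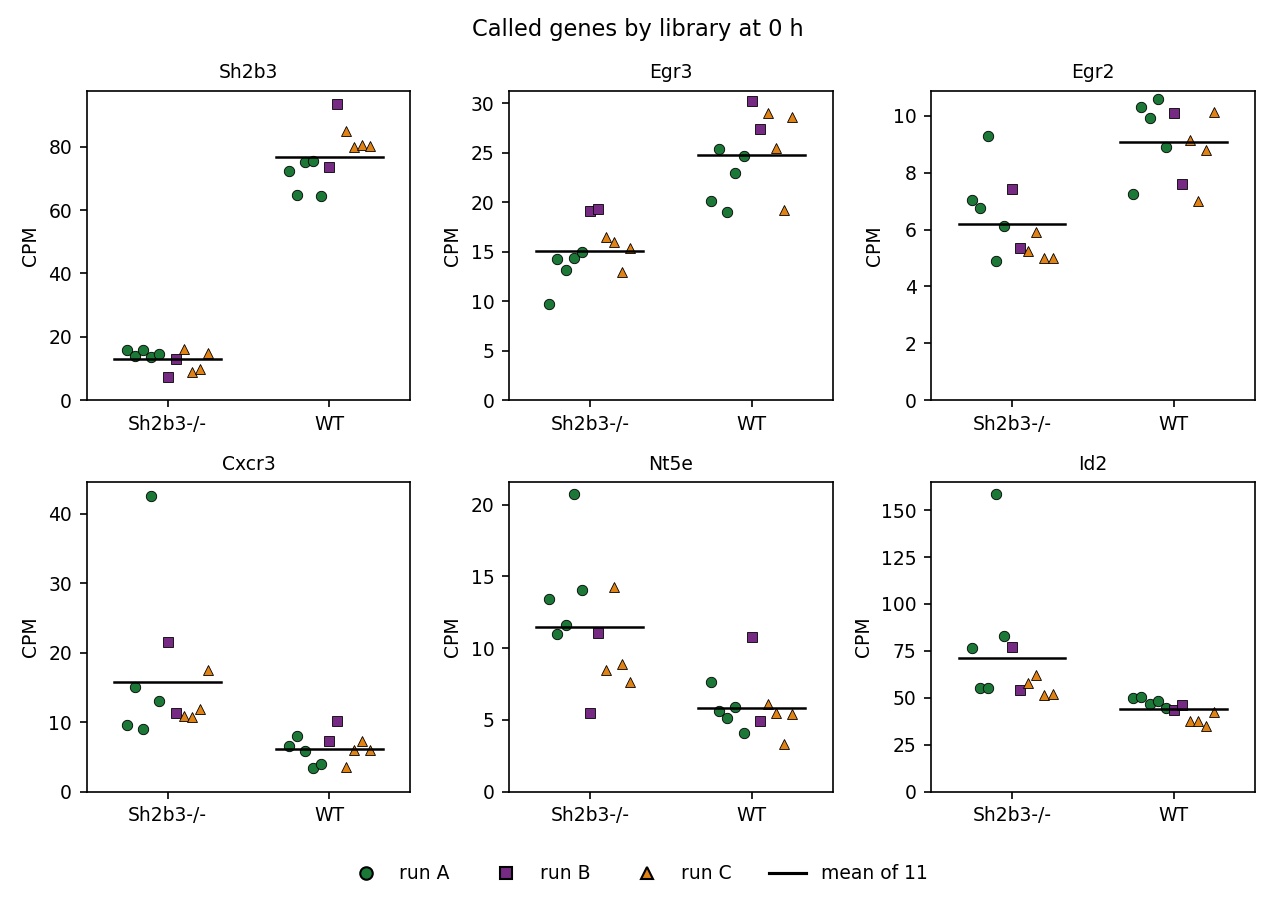
CPM on a linear axis from 0 for 6 called genes (Sh2b3, Egr3, Egr2, Cxcr3, Nt5e and Id2) in every 0 h library, with Sh2b3-/- left of WT, 1 point per library shaped by run and a bar at the mean of 11. Sh2b3 is lower and Id2 higher in every Sh2b3-/- library than in any WT library, while Egr3, Egr2, Cxcr3 and Nt5e overlap between the genotypes.

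The largest difference of all was in a processed copy of a ribosomal protein gene. Rps7 encodes ribosomal protein S7 of the small subunit. Gm6472 on chromosome X and Gm9493 on chromosome 19 are near-identical copies of its transcript. Over 637 aligned bases the GENCODE M21 transcript of Gm6472 was 99.5% identical to that of Rps7, with 3 mismatches, all within the 585 bases of the coding sequence: T26G, G48A and G123T, counted from 1 at the A of the Rps7 start codon, Rps7 base first. Gm9493 was 99.5% identical over 570 bases, also with 3 mismatches, C39T, G317A and G375A. Coding bases 15 to 130 are printed here because they hold most of the letters by which reads of the copies can be told apart, which are in capitals at each position where any of the 3 transcripts differ.
Rps7: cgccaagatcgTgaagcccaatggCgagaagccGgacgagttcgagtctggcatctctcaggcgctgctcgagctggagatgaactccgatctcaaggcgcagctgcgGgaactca
Gm6472: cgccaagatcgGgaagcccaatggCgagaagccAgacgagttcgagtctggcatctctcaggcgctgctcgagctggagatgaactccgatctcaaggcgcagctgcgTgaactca
Gm9493: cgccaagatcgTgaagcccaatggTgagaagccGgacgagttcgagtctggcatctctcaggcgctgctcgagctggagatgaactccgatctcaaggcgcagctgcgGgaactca

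Gm6472 was at 146, 276 and 523 CPM in Sh2b3-/- libraries and at 7.38, 11.2 and 17 CPM in WT libraries. The lowest Sh2b3-/- library was several times above the highest WT library. The log2 difference was 4.83 ± 0.22 (28.4-fold; adjusted p = 7.66e-11), and it was close to that in each run, at 5.00, 4.72 and 4.68 in runs A, B and C. Gm9493 was lower, at 2.14, 2.64 and 5.80 CPM in Sh2b3-/- and 5.63, 8.43 and 13.9 CPM in WT libraries, a log2 difference of −1.42 ± 0.16 (adjusted p = 1.36e-06). Rps7 was also lower, at 1411, 1785 and 2371 CPM in Sh2b3-/- and 1789, 2315 and 2769 CPM in WT, a log2 difference of −0.33 ± 0.05 (adjusted p = 3.45e-04). Because reads of near-identical copies can be counted to the wrong one, the 3 were also summed. Further copies of Rps7, among them AC121967.1 (98.6% identical) and Gm28530 (97.0%), were not in the sum. The sum was 2183 ± 316 CPM in Sh2b3-/- and 2351 ± 282 CPM in WT libraries (SD, n = 11 each), a log2 difference of −0.11 (two-sided exact permutation test within runs over 105840 arrangements, p = 0.0728). Gm6472 took 8.80 to 23.9% of the sum in Sh2b3-/- and 0.283 to 0.778% in WT libraries and the 2 ranges did not overlap. The assignment of reads to any single member is uncertain.

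**Figure D2:**
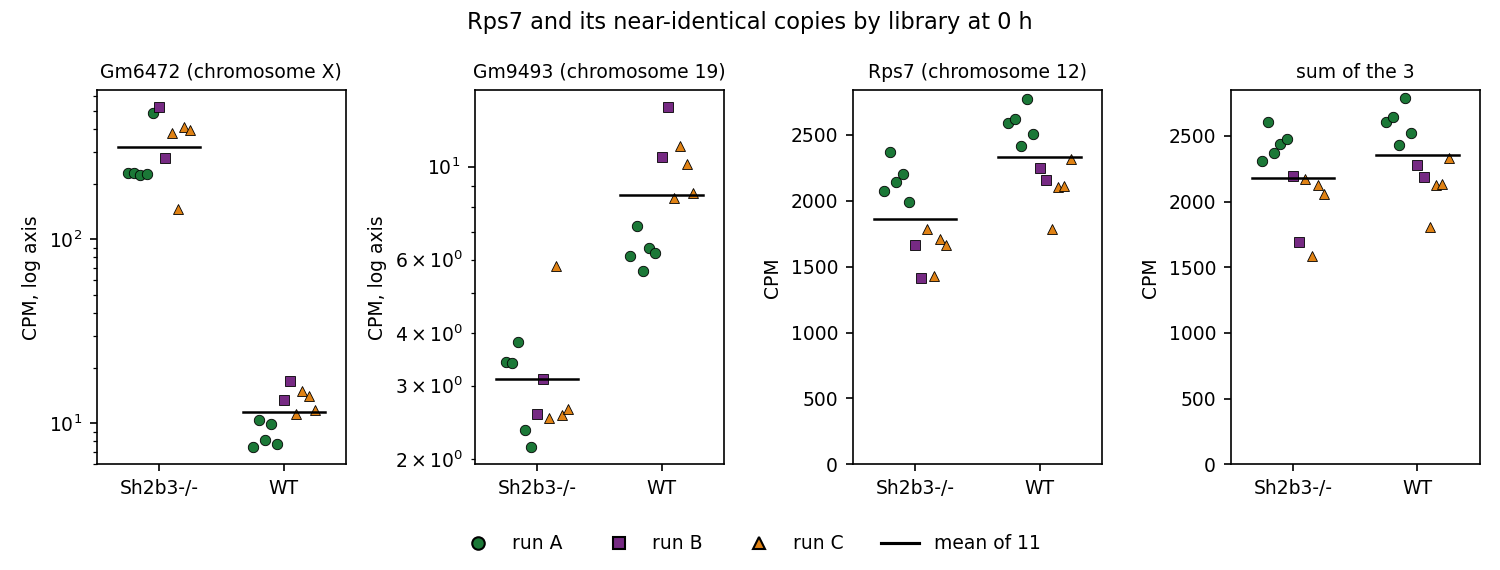
CPM of Gm6472 and Gm9493 (log axes) and of Rps7 and the sum of all 3 (linear axes from 0) in every 0 h library, Sh2b3-/- left of WT, shaped by run, with a bar at the mean of 11. Gm6472 is apart between the genotypes (146 to 523 CPM in Sh2b3-/-, 7.38 to 17 CPM in WT), while the sum overlaps (1582 to 2604 CPM in Sh2b3-/-, 1809 to 2785 CPM in WT).

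Rps7 lay in a stretch of chromosome 12 where many genes were called. On that chromosome 12 of 458 tested genes were called, against 0.561% of genes elsewhere, and 11 of these 12 fell among 31 consecutive tested genes (35.5%) between Odc1 and Acp1. The ends of the stretch were set after the values had been seen. Changes ran in both directions: Gm49327, Adi1, Id2, Tmem18 and Odc1 were higher in Sh2b3-/- cells, and 1700030C10Rik, Rnf144a, Acp1, Trappc12, Rps7 and Ywhaq were lower. Rnf144a, an E3 ubiquitin ligase, was at 6.77, 15.5 and 55.7 CPM in Sh2b3-/- and 68.1, 83.4 and 97.7 CPM in WT libraries. The groups did not overlap, but the Sh2b3-/- libraries spread widely; the log2 difference was −1.79 ± 0.31 (adjusted p = 0.00791), with −1.07, −3.30 and −2.05 in runs A, B and C. Acp1, a low-molecular-weight tyrosine phosphatase, was at 9.78, 14.1 and 28.7 CPM in Sh2b3-/- and 20.9, 31.7 and 36.4 CPM in WT, a log2 difference of −0.92 ± 0.10 (adjusted p = 6.17e-07). It has a near-identical copy elsewhere in the genome, so its reads may be shared.

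Adi1, an enzyme of the methionine salvage pathway, was at 36.6, 62.4 and 76.5 CPM in Sh2b3-/- and 32.6, 35 and 39.8 CPM in WT libraries. All Sh2b3-/- libraries but the lowest were above the WT range, and the log2 difference was 0.78 ± 0.10 (adjusted p = 3.54e-05). Trappc12, a subunit of the TRAPP complex of vesicle transport, was at 48.2, 66.1 and 75.0 CPM in Sh2b3-/- and 75.8, 86.5 and 96.6 CPM in WT, with no overlap and a log2 difference of −0.43 ± 0.06 (adjusted p = 1.32e-05). Tmem18, a nuclear membrane protein, was at 28.7, 34.5 and 39 CPM in Sh2b3-/- and 20.7, 24.6 and 30.1 CPM in WT (0.46 ± 0.07, adjusted p = 7.03e-05). The smaller changes were Ywhaq, which encodes the 14-3-3 theta protein (−0.32 ± 0.06), and Odc1, the rate-limiting enzyme of polyamine synthesis (0.27 ± 0.06). The pseudogene Gm49327 (2.75) and 1700030C10Rik (−2.78) had at most 2.41 CPM in any library. The called gene outside the stretch was Tmem121, at −1.74 ± 0.41 and under 3 CPM in every library. Odc1 lost its call in 15 of 32 other settings and Tmem121 in 17 of 30. Fits of single runs are not among the settings counted for single genes, here and below.

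**Figure D3:**
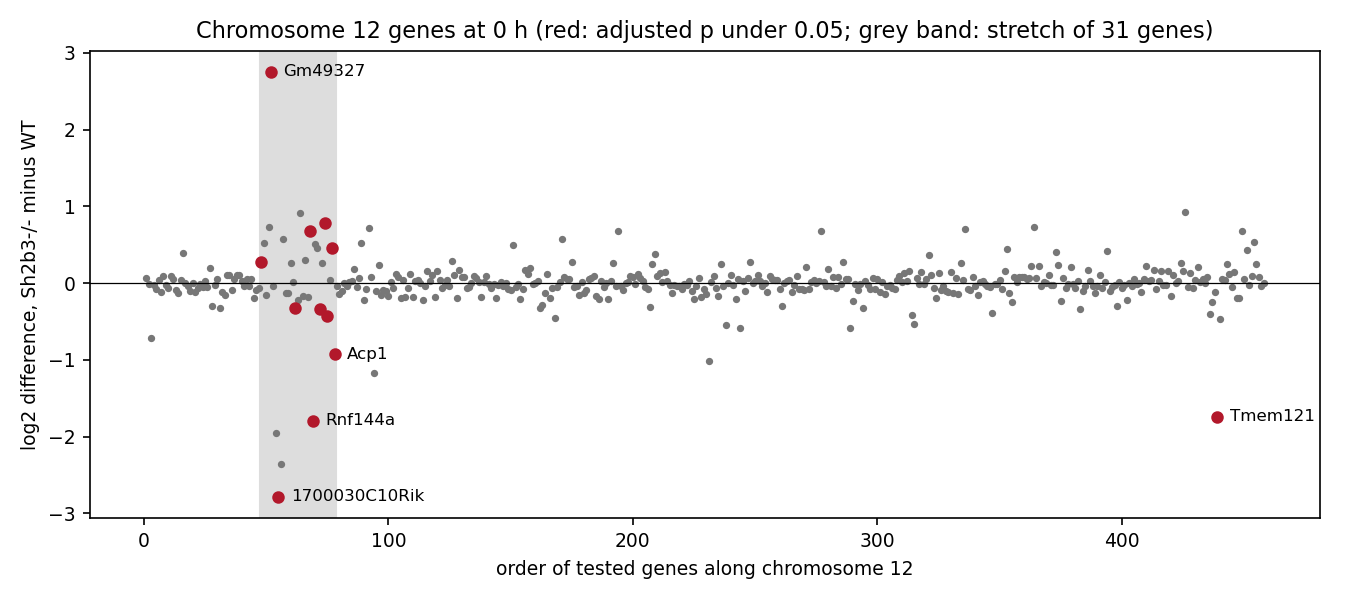
Log2 difference, Sh2b3-/- minus WT, of the 458 tested genes of chromosome 12 in their order along it, with called genes in red and the stretch of 31 genes shaded grey. The 11 called genes from Odc1 to Acp1 lie at ranks 48 to 78, in both directions, and the other called gene, Tmem121, lies outside the band.

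The genes of early T cell receptor (TCR) response that changed were 2 members of the Egr family of zinc finger factors, which restrain T cell activation and mark recent receptor signalling. Egr3 was at 9.73, 15 and 19.3 CPM in Sh2b3-/- and 19, 25.3 and 30.3 CPM in WT libraries. The ranges touched only at their ends, and the log2 difference was −0.72 ± 0.08 (adjusted p = 1.64e-06), at −0.75, −0.58 and −0.76 in runs A, B and C. Egr2 was at 4.88, 5.91 and 9.30 CPM in Sh2b3-/- and 7.01, 9.17 and 10.6 CPM in WT, a log2 difference of −0.56 ± 0.12 (adjusted p = 0.0165). Nab2, a corepressor that binds Egr factors, had −0.49 (adjusted p = 0.112) and Egr1 had −0.28 (adjusted p = 0.482), neither called. Of 38 tested TCR immediate early genes, 2 were lower, 0 were higher and 14 lay above 0, with a median of −0.05 that was −0.02, −0.52 and 0.06 in runs A, B and C. None of 35 genes of the TCR complex and its proximal signalling was called by edgeR, with 9 at an unadjusted p under 0.05 and a median of −0.02. The costimulatory receptor Cd28 had −0.26 (adjusted p = 0.228) and the adaptor Trat1 −0.23 (adjusted p = 0.128).

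Of 27 tested genes of memory-phenotype CD8 T cells, 3 were higher, 0 lower and 20 above 0, with a median of 0.25 that was 0.18, 0.13 and 0.21 in runs A, B and C. Cxcr3, the chemokine receptor that draws T cells to inflamed tissue, was at 9.03, 11.9 and 42.6 CPM in Sh2b3-/- and 3.46, 6.01 and 10.2 CPM in WT libraries. Most Sh2b3-/- libraries were above the WT range, and the log2 difference was 1.35 ± 0.26 (adjusted p = 0.0199), at 1.68, 0.92 and 1.16 in runs A, B and C. Nt5e, the ectoenzyme CD73 that makes adenosine, was at 5.46, 11.1 and 20.7 CPM in Sh2b3-/- and 3.34, 5.45 and 10.8 CPM in WT, a log2 difference of 0.96 ± 0.19 (adjusted p = 0.00869). That difference was 1.32 and 0.95 in runs A and C but 0.07 in run B.

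Id2, an inhibitor of E proteins that is raised in effector and memory cells, was at 51.3, 57.7 and 159 CPM in Sh2b3-/- and 35.2, 44.8 and 50.5 CPM in WT libraries (0.68 ± 0.14, adjusted p = 0.0350). It lies in the chromosome 12 stretch described above. Tbx21, the T-bet factor of effector differentiation, was at 2.98, 5.10 and 19.5 CPM in Sh2b3-/- and 1.33, 3.11 and 5.79 CPM in WT, and with 1.17 ± 0.28 it missed the threshold (adjusted p = 0.0583). Sh2b3-/- replicate 10 was the highest library for Cxcr3, Id2 and Tbx21. Without it 4 memory genes were called, Cxcr3, Id2, Nt5e and Tbx21. Id2 was no longer called in 19 of 32 other settings, and without Sh2b3-/- replicates 1 and 6 the called members were Cxcr3, Nt5e and Tbx21. Eomes (0.28), Ifng (0.66) and Gzmb (0.22) were not called, and Ifngas1, a noncoding RNA beside Ifng, was higher by 1.36 ± 0.30 at 2.08, 3.31 and 5.91 CPM in Sh2b3-/- and 0, 1.54 and 2.81 CPM in WT (adjusted p = 0.0254).

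Among 26 tested effector genes 2 were higher, Cxcr3 and Id2, which are also on the memory list, and the median was 0.10 (0.19, −0.15 and 0.19 in runs A, B and C). It was 0.02 without Sh2b3-/- replicate 10 and 0.19 without Sh2b3-/- replicate 7. Of 33 genes of naive and quiescent T cells none was called by edgeR, 3 had an unadjusted p under 0.05 and the median was 0.00. Id3, a member of the same family as Id2 that is kept high in naive cells, had −0.51 (adjusted p = 0.0927). In bulk RNA a change in the share of memory-phenotype cells and a change in RNA per cell cannot be told apart.

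Interferon-stimulated genes were higher in Sh2b3-/- cells in 2 of the 3 runs. These genes are switched on by type I interferon and encode antiviral proteins. Of 66 tested, 6 were called and all were higher: Tdrd7 (0.68 ± 0.16), Tor3a (0.51 ± 0.12), Rtp4 (0.43 ± 0.10), Cd274 (0.41 ± 0.09), Slfn8 (0.29 ± 0.07) and Ddx58 (0.25 ± 0.06). The list's median was 0.33 with 65 of 66 above 0. By run it was −0.01 in run A with 31 of 66 above 0, 0.74 in run B with 66 above 0, and 0.56 in run C with 65 above 0. The mean log2 CPM of the list lay at 6.36 to 6.72 in Sh2b3-/- and 6.37 to 6.94 in WT libraries of run A, which overlapped. In run B it was 6.56 to 6.75 in Sh2b3-/- and 5.75 in both WT libraries, and in run C 6.35 to 6.92 in Sh2b3-/- and 5.40 to 6.27 in WT, both without overlap. The Sh2b3-/- ranges of the 3 runs overlapped each other, whereas the WT libraries of runs B and C all lay below those of run A.

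Single genes also had their smallest difference in run A or one of the opposite sign. Ddx58, which encodes the RNA sensor RIG-I, was at 227, 266 and 299 CPM in Sh2b3-/- and 169, 228 and 261 CPM in WT libraries (adjusted p = 0.0314), with a log2 difference of 0.05, 0.36 and 0.43 in runs A, B and C. Rtp4, a receptor transport protein that restrains antiviral signalling, was at 70.8, 81.0 and 99.1 CPM in Sh2b3-/- and 35.3, 60.6 and 90.7 CPM in WT (adjusted p = 0.0402), with 0.14, 0.74 and 0.65 by run. Rsad2, the antiviral enzyme viperin, was not called (0.51, adjusted p = 0.558) and differed most in direction, at −0.37, 1.70 and 1.07. Like Id2, Rsad2 lies within the chromosome 12 stretch described above. Without run A 31 members were called and without run B or run C 0 were, and 0 to 9 were called when each of the 22 libraries was left out in turn. Leaving out Sh2b3-/- replicate 3, 5, 6 or 7 or WT replicate 5, 8 or 9 left 0. Run B alone called 27, run C alone 6 and run A alone 0 members (1 with an unadjusted p under 0.05). The interferon gamma response list had 1 gene of 35 called, Cd274 (PD-L1), 34 above 0 and a median of 0.24 that was 0.06, 0.58 and 0.33 by run. Stat2 (0.26, adjusted p = 0.440) and Irf9 (0.23, adjusted p = 0.0914), factors of the type I interferon response, were not called.

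**Figure D4:**
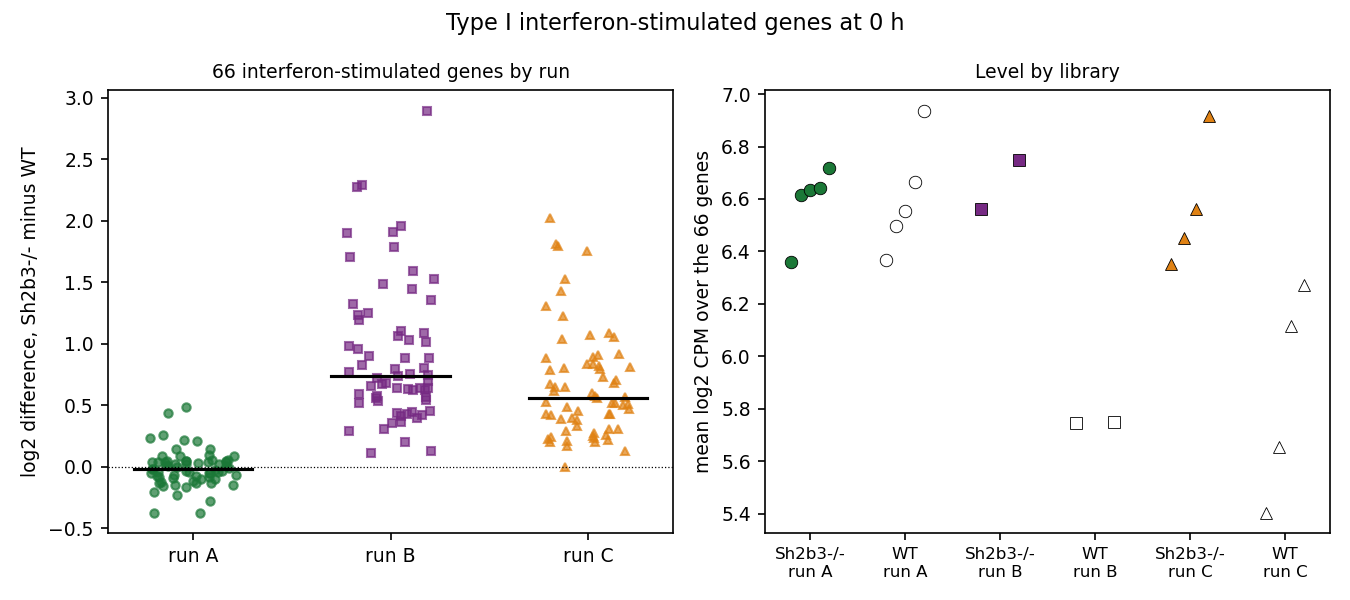
Left, the log2 difference, Sh2b3-/- minus WT, of each of 66 interferon-stimulated genes by run with a bar at the median; right, the mean log2 CPM of the list in every 0 h library by run, Sh2b3-/- (filled) left of WT (open). The genotypes overlap in run A (6.36 to 6.72 and 6.37 to 6.94) and are apart in run B (6.56 to 6.75 and 5.75) and run C (6.35 to 6.92 and 5.40 to 6.27).

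The binding site of the interferon-activated factor complex was looked for as GAAANNGAAA, on both strands, in RefSeq promoters of build GRCm38.p6, 250 bases before to 50 after each gene's start; matches may overlap each other. It was present in 27 of 53 interferon-stimulated promoters (50.9%) and in 341 of 9128 promoters of all tested genes (3.74%). Of the 6 called genes, Ddx58, Slfn8 and Tdrd7 held a match, Cd274 held none in its window, and Tor3a and Rtp4 were not searched. The windows of 30 bases below are from these 3 called genes, and from Trim30d, whose genotype difference varied by run, with the match in capitals as read on its own strand.
Ddx58: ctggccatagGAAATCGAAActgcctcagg
Slfn8: tgcttttgggGAAAACGAAActgctcaaat
Tdrd7: gaactttgtgGAAAGAGAAAtaaatccaca
Trim30d: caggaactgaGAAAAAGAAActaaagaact

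The test of genotype by run called 3 of 12802 genes (0.0234%), with 1110 at an unadjusted p under 0.05. Trim30d, an interferon-stimulated gene of the TRIM family, was at 31.4, 40.2 and 63.6 CPM in Sh2b3-/- and 19.2, 26 and 43.1 CPM in WT libraries. Its log2 difference was 0.01 in run A, 1.19 in run B and 0.92 in run C (adjusted p = 0.00982 for the difference between runs). Trbc2, the second constant segment of the TCR beta chain, had −0.16, −1.13 and −0.05 (adjusted p = 0.0341), so the low value was in run B, which holds Sh2b3-/- replicate 6. Usp11, a deubiquitinase, had −0.12, −0.32 and 0.30 (adjusted p = 0.0395). Fitted alone, with its own filter on low counts, run A called 6 genes, run B 76 and run C 61, of which 59 were among the genes tested over all runs. Of the 76 called in run B, 42 went the same way in run A and 74 in run C, against 50.3% and 53.2% of all tested genes. Of these 59, 58 were also fitted in run A and 46 went the same way there (55.7% of all tested). Runs share no library, but the labels do not say whether the libraries of different runs came from separate animals.

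Cell division genes lay above 0 as a group, and none was called. Of 38 tested G2 and M phase genes 35 were above 0, with a median of 0.30 that was 0.23, 0.35 and 0.54 in runs A, B and C. edgeR called 0 and 14 had an unadjusted p under 0.05. The kinesin Cenpe (0.64, adjusted p = 0.125), the spindle midzone protein Prc1 (0.65, adjusted p = 0.129) and the checkpoint kinase Bub1 (0.95, adjusted p = 0.1499) were nearest to the threshold. Mki67, the proliferation marker Ki-67, was at 7.33, 18 and 30.8 CPM in Sh2b3-/- and 9.34, 12 and 27 CPM in WT libraries, a log2 difference of 0.49 (adjusted p = 0.389). Its groups overlapped fully. The count turned on Sh2b3-/- replicate 10. Without it Cenpe (0.73, adjusted p = 0.0287), Prc1 (0.74, adjusted p = 0.0364), Mki67 and the kinesin Kif23 were called, and the median was 0.37. Leaving out any other single library called 0, and leaving out Sh2b3-/- replicates 6 and 10 together called 1, Kif23, which was named after its values were seen. S phase genes had a median of 0.09 with 35 of 43 above 0, and 0 called.

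The pathways that SH2B3 acts in showed no called gene of their own in the fit of all libraries. None of 15 common gamma chain receptors and STATs was called by edgeR (5 at an unadjusted p under 0.05), and their median was −0.00. The IL-7 receptor Il7r was at 237, 304 and 472 CPM in Sh2b3-/- and 271, 355 and 456 CPM in WT libraries, with a log2 difference of −0.14 (95% interval −0.34 to 0.05). Il2ra, the inducible alpha chain of the IL-2 receptor, was at 0.590, 1.90 and 4.53 CPM in Sh2b3-/- and 2.28, 3.89 and 5.61 CPM in WT (−0.87, adjusted p = 0.105), while Stat5a had 0.13 (adjusted p = 0.233). Among 28 STAT5 targets 0 were called (4 unadjusted) and the median was 0.04.

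The feedback inhibitors that STAT5 induces read the same way. Cish had a log2 difference of 0.04 (95% interval −0.38 to 0.47), Socs1 0.23 (−0.07 to 0.54) and Socs3 0.23 (−0.11 to 0.57). The survival factor Bcl2 had 0.02 (−0.12 to 0.17) and Myc 0.08 (−0.05 to 0.21), and Socs2 was too low to test. None of 17 JAK-STAT inhibitors (3 unadjusted, median −0.03) and none of 12 SH2B3 partners (2 unadjusted, median −0.04) was called by edgeR. Cblb, a ubiquitin ligase that dampens T cell activation, came nearest among the partners (0.12, adjusted p = 0.341).

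Cholesterol synthesis genes lay below 0, with 6 of 33 above 0 and a median of −0.13 (−0.07, −0.15 and −0.08 by run). edgeR called 0 and 10 had an unadjusted p under 0.05. Cyp51, the lanosterol demethylase, had −0.38 (adjusted p = 0.106). Among the remaining lists the called genes were Odc1 among 36 MYC and ribosome biogenesis genes (median −0.02), Nt5e among 15 inhibitory receptors (−0.01), Cxcr3 among 22 homing receptors (−0.02), and Dtx4, higher, and Fhl2, lower, among 20 Notch and TGF-beta genes (−0.00). None was called among 21 apoptosis genes (median 0.00, 2 unadjusted), 20 p53 targets (−0.03, 3 unadjusted) or 16 genes of interferon receptors and signalling (0.01, 3 unadjusted).

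**Figure D5:**
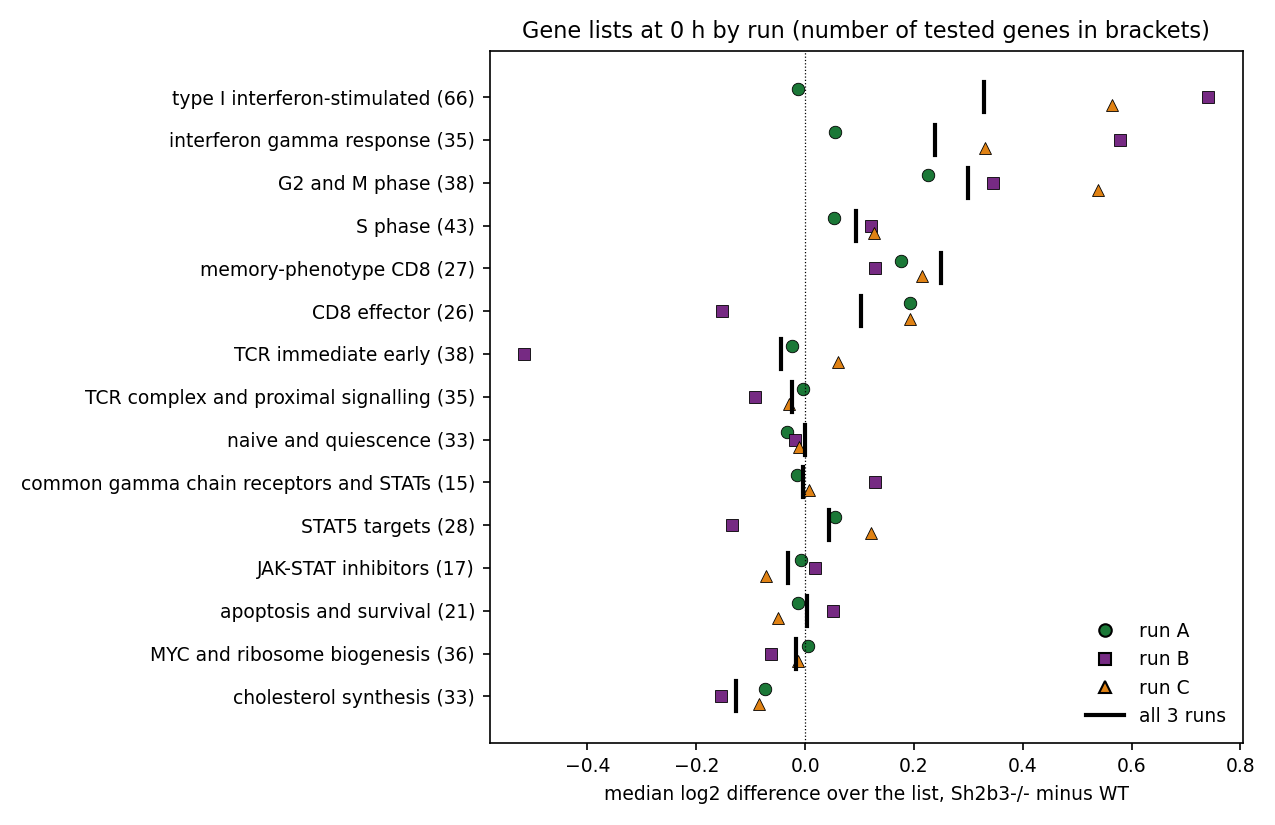
Median log2 difference, Sh2b3-/- minus WT, of 15 gene lists, with a point for each run and a black bar for all 3 runs. The type I interferon-stimulated list stands at −0.01 in run A, 0.74 in run B and 0.56 in run C, and the memory-phenotype list lies between 0.13 and 0.21 in the 3 runs.

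Of the 81 called genes 63 were on none of the lists. The largest rise among named protein-coding genes was Mid1, a microtubule-bound ubiquitin ligase of the X chromosome, at 10.9, 25.2 and 49.7 CPM in Sh2b3-/- and 6.78, 8.45 and 16.1 CPM in WT libraries (1.48 ± 0.23, adjusted p = 0.00350). It was 1.42, 0.38 and 2.09 in runs A, B and C, and it overlaps another annotated gene and has a near-identical copy. Rnf157, a ubiquitin ligase, was at 17.5, 25.9 and 32.2 CPM in Sh2b3-/- and 3.37, 9.80 and 22.2 CPM in WT (1.27 ± 0.26, adjusted p = 0.0319). Here the WT libraries spread more widely than the Sh2b3-/- libraries, and the call was lost in 15 of 32 other settings, among them 11 of the 22 that left out 1 library and the one without Sh2b3-/- replicates 6 and 10. Dtx4, a regulator of Notch signalling, was at 9.03, 16.9 and 23.8 CPM in Sh2b3-/- and 4.80, 9.80 and 14.9 CPM in WT (0.78 ± 0.13, adjusted p = 8.74e-04), and the septin Sept8 (1.04 ± 0.20) and progranulin, Grn (0.66 ± 0.14), were also higher.

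Apart from Sh2b3, the falls outside chromosome 12 included genes of low and of moderate level. Themis2, a signalling adaptor of B and myeloid cells, was at 0.482, 2.06 and 4.24 CPM in Sh2b3-/- and 2.48, 4.99 and 8.95 CPM in WT libraries (−1.35 ± 0.22, adjusted p = 8.74e-04). Fhl2, a LIM-domain cofactor, had −0.86 ± 0.14 and Wfikkn2, a secreted binder of TGF-beta family ligands, −0.86 ± 0.17. Vat1, a membrane protein of vesicle transport, was at 12.8, 16.6 and 19.97 CPM in Sh2b3-/- and 19.8, 23.1 and 32.7 CPM in WT, nearly without overlap (−0.55 ± 0.08, adjusted p = 4.84e-05). Sox4, a transcription factor of early lymphocytes, was at 26.8, 46.8 and 65.4 CPM in Sh2b3-/- and 57.9, 61.7 and 95.4 CPM in WT (−0.50 ± 0.08, adjusted p = 8.74e-04).

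Further called genes, named after their values were seen, had smaller changes or lower levels. Jaml, a junctional adhesion molecule of T cells, was at 64.5, 84.9 and 96.8 CPM in Sh2b3-/- and 55.3, 66.9 and 82.5 CPM in WT libraries (0.31 ± 0.07, adjusted p = 0.0251), with 0.11, 0.60 and 0.41 in runs A, B and C. Xdh, xanthine dehydrogenase, was at 46.7, 64.1 and 82.6 CPM in Sh2b3-/- and 39.7, 48.6 and 59.4 CPM in WT (0.36 ± 0.08, adjusted p = 0.0402), with 0.06, 0.83 and 0.49. Both differences were smallest in run A. Pmepa1, an inhibitor of TGF-beta signalling, was higher at 33.2, 40.4 and 51.1 CPM in Sh2b3-/- and 25.1, 32.5 and 38.8 CPM in WT (0.34 ± 0.07, adjusted p = 0.0107).

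Fkbp5, an immunophilin induced by glucocorticoids, was lower at 54.2, 67.7 and 75.3 CPM in Sh2b3-/- and 64.7, 78.3 and 98.5 CPM in WT libraries (−0.25 ± 0.06, adjusted p = 0.0314). Cd7, a costimulatory receptor of T and NK cells, was at 94.3, 114 and 148 CPM in Sh2b3-/- and 119, 144 and 160 CPM in WT (−0.25 ± 0.06, adjusted p = 0.0251). Itpkb, the kinase that makes inositol tetrakisphosphate downstream of the TCR, was at 254, 275 and 305 CPM in Sh2b3-/- and 292, 315 and 347 CPM in WT (−0.17 ± 0.04, adjusted p = 0.0466). These ranges overlapped, and each of the 3 genes had a negative difference in all 3 runs. Of 32 other settings the call was lost in 11 for Jaml, 19 for Xdh, 4 for Pmepa1, 14 each for Fkbp5 and Cd7, and 26 for Itpkb. Gfra1, a receptor of the GDNF family, had a larger fall (−1.75 ± 0.34, adjusted p = 0.00614) at 0.136, 0.710 and 2.27 CPM in Sh2b3-/- and 1.15, 2.95 and 4.13 CPM in WT. Adora2a, an adenosine receptor, had −0.46 ± 0.08 (adjusted p = 0.00282), and Tsc22d1, a transcriptional regulator, −0.48 ± 0.09 (adjusted p = 0.00457); both were also named after their values were seen.

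Of the 81 called genes, 17 had a transcript at least 95% identical over 300 bases or more to another gene, and for these, as for genes that overlap another, reads may be shared. Xdh is among those with such a copy, and Jaml and Itpkb overlap another annotated gene.

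Markers of other cells that negative selection can leave were read beside these results. Of 10 tested gamma delta T cell markers 2 were lower, Maf (−0.78 ± 0.18, adjusted p = 0.0338) and Blk (−0.99 ± 0.24, adjusted p = 0.0478), and 1 was above 0, with a median of −0.37 (−0.04, −1.48 and −0.28 by run). Their summed level was 368 to 1232 CPM in Sh2b3-/- and 535 to 1231 CPM in WT libraries, and Il17a was at 0. The highest of these was Sh2b3-/- replicate 10, and the other Sh2b3-/- libraries lay at 368 to 727 CPM. The median was −0.63 without Sh2b3-/- replicate 10 and −0.22 without Sh2b3-/- replicate 6. Maf was no longer called in 15 and Blk in 19 of the 22 fits that left out 1 library, and neither was called without Sh2b3-/- replicates 1 and 6. Of 18 B cell markers 1 was lower, Blk again, at a median of 0.12 (−0.25, 0.01 and 0.47 by run) and a sum of 710 to 1059 CPM in Sh2b3-/- and 827 to 1091 CPM in WT. Globin and erythroid genes had 0 of 9 called by edgeR (0 unadjusted), 9 above 0, a median of 0.47 that was 1.78 in run C, and a sum of 33.2 to 180 CPM in Sh2b3-/- and 32.8 to 113 CPM in WT. No marker was called among NK cells (6 tested, sum 386 to 636 CPM in Sh2b3-/- and 438 to 497 CPM in WT, Klrb1b at 0), monocytes and macrophages (6 tested, 145 to 260 and 132.3 to 262 CPM), dendritic cells and MHC class II (12 tested, 271 to 491 and 248 to 453 CPM, Clec10a at 0) or CD4 and regulatory T cells (15 tested, 188 to 380 and 211 to 274 CPM). In run C the median log2 difference was 0.38 for monocyte and macrophage markers and 0.48 for dendritic cell markers. It was 0.07 for NK cell markers and −0.11 for CD4 and regulatory T cell markers there. The 380 CPM of the last list was Sh2b3-/- replicate 10, and the other Sh2b3-/- libraries lay at 188 to 235 CPM. The 3 tested megakaryocyte and platelet markers had a median of 0.06 and the neutrophil markers were too low to test, with a sum of at most 7.93 CPM. Mitochondrial transcripts had a median of −0.12 (1 of 14 above 0), and heat shock and handling genes −0.05 (6 of 26 above 0). The 18 CD8 T cell markers had 0 called by edgeR (7 unadjusted) and a median of −0.03. The part of other cells and of RNA quality in the called genes was not tested.

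The same genes were followed in stimulated cells of other libraries, 5 of each genotype at 2, 6 and 24 h after anti-CD3 and anti-CD28. By library number, all 2 h and 6 h libraries were placed with run A and all 24 h libraries with runs B and C. The 0 h calls used all 3 runs, so time and run cannot be told apart when results of different times are compared. There 8 of 12372 genes were called at 2 h (0.0647%), 4 of 13082 at 6 h (0.0306%) and 48 of 12906 at 24 h (0.372%). Of the 0 h calls that were tested, 59 of 74 went the same way at 2 h, 67 of 79 at 6 h and 54 of 77 at 24 h, against 51.9%, 54% and 53% of all tested genes. They were called again in 3, 2 and 7 cases. The labels do not say whether the stimulated cells came from the same mice as the 0 h cells. Agreement between the times may therefore not be independent. Gm6472 was at 173 to 360 CPM in Sh2b3-/- and 6.14 to 10.3 CPM in WT at 2 h, 182 to 333 and 4.31 to 7 CPM at 6 h, and 121 to 203 and 6.92 to 15 CPM at 24 h. Rnf144a and Trappc12 also stayed without overlap at all 3 times, with Rnf144a at 3.90 to 11.8 CPM in Sh2b3-/- and 16.7 to 20.9 CPM in WT at 2 h. Id2 was higher again at 24 h (1.01, adjusted p = 0.00242), as were Rnf157 (1.01, adjusted p = 0.0159) and Adi1 (0.65, adjusted p = 0.0418), while Trappc12 (−0.65, adjusted p = 0.0197) and Rps7 (−0.48, adjusted p = 0.0466) were lower.

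Egr3, Tmem18, Vat1 and Cxcr3 overlapped between the genotypes at each later time. At 2 h the mean of Tmem18 was 20.4 CPM in Sh2b3-/- and 19.7 CPM in WT, and that of Vat1 79.2 CPM in Sh2b3-/- and 75.2 CPM in WT. At 24 h Tmem18 had means of 22.7 CPM in Sh2b3-/- and 21 CPM in WT. Egr3 was at 279 to 1380 CPM in Sh2b3-/- and 453 to 861 CPM in WT at 2 h, 147 to 584 and 240 to 384 CPM at 6 h, and 181 to 263 and 166 to 224 CPM at 24 h. The test of genotype by time called 0 genes (0%) at 2 h, 6 h and 24 h against 0 h (edgeR), with 949, 514 and 1211 genes at an unadjusted p under 0.05. This test used only those 0 h libraries whose run also held the later time, and it treated the libraries of different times as unpaired.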

How the data were processed

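The deposited values are raw read counts per gene, made by the authors for all 60 libraries in 1 table of 55414 genes. Per the submitters' processing notes, reads were aligned to GRCm39 with STAR 2.7.9a and counted with featureCounts 2.0.1 of Subread. The strand setting was not given in the sources used here. Names and gene order came from GENCODE mouse release M21, which named 52081 genes holding 99.6% of the counts of the 22 libraries; its build differs from that of the counts, so no coordinates are given. RNA was extracted with a Qiagen or a Zymo kit, and the labels do not tie a kit to a library. The runs are blocks of library numbers, which the labels do not explain.

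Genes were kept by filterByExpr (minimum count 10), scaled by TMM and tested with edgeR 4.0.16 (R 4.3.3) by a robust quasi-likelihood F test with genotype and run as terms, and Benjamini-Hochberg adjustment over all tested genes. Values by run came from a fit with a genotype effect per run, and their difference from an F test of both interaction terms. Levels of lists used log2 CPM with a prior count of 2. No library was a duplicate: counts of libraries of the same genotype differed by a chi-square of at least 6.88 per degree of freedom. Alternatives used DESeq2 1.42.0 and limma 3.58.1. Transcripts were compared with BLAST+. Only the fit of genotype at 0 h was tested on simulated data with known changes, and those data held no difference between runs.

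The comparison, its gene lists and its members were chosen with earlier results of these data known. The text names the Sh2b3 family, the 12 largest rises and falls among called genes of at least 2 CPM with 1 direction in the 3 runs, called list members or the nearest to the threshold, called genes of chromosome 12 and near Sh2b3, the genes with the smallest adjusted p of genotype by run, and a set of cytokine and effector genes. Where many were named, those of most weight are printed. A few members of the lists are not reported here.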

Additional observations from a re-analysis of the deposited data

Results flagged for a closer look

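The genotype difference varied between runs, by the test of genotype by run, for 3 genes. Trim30d had log2 differences (Sh2b3-/- minus WT) of 0.0132 in run A, 1.19 in run B and 0.916 in run C, with an adjusted p of 0.00982. Trbc2 had −0.156 in run A, −1.13 in run B and −0.0491 in run C, with an adjusted p of 0.0341. Usp11 had −0.117 in run A, −0.321 in run B and 0.301 in run C, with an adjusted p of 0.0395. These adjusted p-values are from edgeR's quasi-likelihood F test over 12802 genes. Run B held 2 libraries of each genotype, and its values were the lowest or the highest for all 3 genes. What differs between the runs is not given in the labels, and its part in these results was not tested.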

How the results depend on the processing

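The share of tested genes called at 0 h, 0.633% (81 genes), depended on the settings. It was 1.66% with no filter on low counts (477 genes), 1.27% with DESeq2 (163), 0.219% with no run term (28), 1.15% without run A (148), 0.257% without run B (33), 0.0857% without run C (11) and 0.0464% in run A alone (6). Requiring a change of at least 1.5-fold as well left 0.25% (32). The count stayed within 1.5 times with DESeq2 size factors (77), limma voom (95), and run B (76) or run C alone (61). The genes called in single runs were mostly others: of the 81, 4 were called in run A alone, 11 in run B alone and 29 in run C alone. Settings chosen after the data had been seen gave 107 genes without Sh2b3-/- replicates 6 and 10 (59 shared with the 81) and 98 without Sh2b3-/- replicates 1 and 6 (63 shared). Leaving out each library gave 0.349% to 1.06%. The count fell to 45 without WT replicate 8, 51 without WT replicate 2 or 3, and 47, 50 and 51 without Sh2b3-/- replicates 3, 5 and 7; the highest share was without Sh2b3-/- replicate 10 (73 shared). Of the largest rises and falls and the chromosome 12 genes, Sh2b3, Adi1, Acp1, Egr3, Vat1, Trappc12 and Tmem18 were called in all 32 settings. These 32 settings did not include the fits of single runs. In them no named gene among the 81 calls reversed its direction. Named genes that were not called could change sign, such as Cish, at −0.15 to 0.13 over the fits that left out 1 library.

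The 3 genes of genotype by run became 342 with no filter, 7 in runs B and C, 1 in runs A and C, 8 in runs A and B and 8 without Sh2b3-/- replicates 6 and 10. Leaving out each library gave 1 to 53, the most without Sh2b3-/- replicate 7. The 8 calls at 2 h became 4 with DESeq2 size factors and 230 with no filter (3 to 63 without a library). The 4 calls at 6 h ranged from 3 to 5, and the 48 at 24 h from 8 to 361, with 362 under no filter. Genotype by time at 24 h gave 141 with no filter. The cause of these shifts was not tested. No paired analysis was possible because the labels carry no replicate numbers shared by the genotypes or by the times. Depth limits genes near 1 CPM, such as Gm49327 and Tmem121, most. Run B rests on 2 libraries of each genotype, and no run gives separate animals by its labels.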

Other observations

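Within Sh2b3-/- libraries the chromosome 12 stretch and Gm6472 varied together. The 5 Sh2b3-/- libraries nearest to WT were replicates 1, 3, 8, 9 and 10 for Rnf144a, Adi1, Trappc12, Tmem18, Acp1, 1700030C10Rik and Gm6472. In these 5 libraries Rnf144a was at 34.4 to 55.7 CPM, against 6.77 to 15.5 CPM in the other 6 Sh2b3-/- libraries and 68.1 to 97.7 CPM in WT. Acp1 was at 15.5 to 28.7 CPM in the 5, 9.78 to 14.1 CPM in the 6 and 20.9 to 36.4 CPM in WT. Gm6472 took 8.80 to 10.0% of the sum of Rps7, Gm6472 and Gm9493 in the 5, 16.4 to 23.9% in the 6 and 0.283 to 0.778% in WT. The sets were noticed from the values, 4 of the 5 are in run A and replicate 3 is in run C, and no test was made between them. Rps7 and Ywhaq shared 4 of these 5 libraries, Odc1 1 and Id2 2.

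Sh2b3-/- replicates 1 and 6 had the lowest levels of the OT-I beta-chain segment Trbv12-1, at 173 and 133.8 CPM. Other beta-chain segments came to 20.02 CPM in replicate 1 and 8.22 CPM in replicate 6, against 4.20 to 14.8 CPM in the other Sh2b3-/- libraries and 4.20 to 8.75 CPM in WT. Trbj1-1, a joining segment of the TCR beta locus that is not read here as part of the OT-I receptor, was lower in Sh2b3-/- cells. It was at 52.9, 70.9 and 101 CPM (lowest, median, highest) against 71.4, 93.0 and 120 CPM in WT (−0.39 ± 0.09, adjusted p = 0.0390). Bag3, a heat shock cochaperone, reached 100 CPM in 1 Sh2b3-/- library against 2.46 to 9.69 CPM in WT. Among the fits that left out 1 library, its log2 difference was lowest, at 0.15, without Sh2b3-/- replicate 10.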
